A study of Mus musculus with 54 samples.

Results

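RNA polymerase II (Pol2) chromatin immunoprecipitation sequencing (ChIP-seq) of germ cell-enriched testis preparations gave 1 deposited peak list for wild-type mice and 1 for mice with a combined mutation, and the regions described here are the Pol2 peaks listed only in wild type. Of the 25192 peaks of the WT list, 8758 shared no base with any of the 28407 peaks of the mutant list, and these are called WT-only. The other 16434 WT peaks were overlapped by a mutant peak and are called shared, and 11009 mutant peaks overlapped no WT peak. These regions were chosen by the presence or absence of a called Pol2 peak, so their Pol2 scores and widths are a description and were not tested.

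The mice were C57BL/6 males aged 3 months. WT animals were Ctcf+/+Boris+/+, CTCF HET animals Ctcf+/-Boris+/+, BORIS KO animals Ctcf+/+Boris-/-, and the combined mutant (CM) Ctcf+/-Boris-/-, so that CM cells carried 1 Ctcf allele and no intact allele of Ctcfl, the gene that encodes BORIS. Each preparation pooled 4 mice and was made by collagenase and trypsin digestion, which enriches germ cells without purifying a single stage. The ChIP-seq lists used here are of WT and CM, and RNA-seq covered whole testis preparations of all 4 genotypes and sorted round spermatids and spermatocytes, with 3 libraries a group except 2 for WT spermatocytes.

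Pol2 transcribes all protein-coding genes. It loads at promoters, moves through the gene body and terminates beyond the last exon. H3K4me3 is a histone mark of promoters that are active or poised. CTCF is a zinc finger protein that binds DNA at insulators and promoters, and BORIS is its germ cell paralog, which binds many of the same sequences. In the testis, transcription is especially broad in late meiotic cells and in round spermatids, where many genes that are silent elsewhere are switched on.

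Sequence around some WT-only peaks is shown first, because a low content of CpG dinucleotides was a feature of WT-only promoters that the Pol2 rule did not use. The 5 promoters are the 250 bases immediately before an annotated transcription start of genes named below, taken from the mm9 genome on the strand of the gene. The last is the 300 bases at the centre of the WT-only peak with the highest score outside any gene. CpG dinucleotides are in capitals. The Nt5c1b window (chr12:10376529-10376778, plus strand) lies upstream of every annotated transcript of the gene, as do those of Fscb (chr12:65575886-65576135, minus strand), Izumo3 (chr4:91813926-91814175, minus strand) and Dpep3 (chr8:108503320-108503569, minus strand). The Actg2 window (chr6:83477985-83478234, minus strand) lies within an intron, before an internal start. The intergenic window is chr17:66569234-66569533, plus strand.
Nt5c1b: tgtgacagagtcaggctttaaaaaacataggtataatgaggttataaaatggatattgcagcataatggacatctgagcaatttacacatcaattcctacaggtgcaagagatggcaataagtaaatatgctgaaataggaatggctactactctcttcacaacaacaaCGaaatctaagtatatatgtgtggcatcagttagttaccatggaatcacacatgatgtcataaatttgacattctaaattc
Fscb: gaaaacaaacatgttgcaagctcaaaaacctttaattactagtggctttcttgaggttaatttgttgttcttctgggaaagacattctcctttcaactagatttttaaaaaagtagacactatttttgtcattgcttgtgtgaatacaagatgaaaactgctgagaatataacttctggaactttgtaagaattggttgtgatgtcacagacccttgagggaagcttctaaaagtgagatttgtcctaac
Izumo3: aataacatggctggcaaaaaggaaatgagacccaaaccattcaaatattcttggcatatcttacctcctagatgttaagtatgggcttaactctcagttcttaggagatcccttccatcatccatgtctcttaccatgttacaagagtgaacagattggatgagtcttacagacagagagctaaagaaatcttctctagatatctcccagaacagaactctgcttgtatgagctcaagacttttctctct
Actg2: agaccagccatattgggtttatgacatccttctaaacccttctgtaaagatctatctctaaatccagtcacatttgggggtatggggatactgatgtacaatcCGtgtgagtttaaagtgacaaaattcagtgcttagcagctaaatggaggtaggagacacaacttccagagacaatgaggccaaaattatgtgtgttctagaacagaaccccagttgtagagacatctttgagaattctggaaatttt
Dpep3: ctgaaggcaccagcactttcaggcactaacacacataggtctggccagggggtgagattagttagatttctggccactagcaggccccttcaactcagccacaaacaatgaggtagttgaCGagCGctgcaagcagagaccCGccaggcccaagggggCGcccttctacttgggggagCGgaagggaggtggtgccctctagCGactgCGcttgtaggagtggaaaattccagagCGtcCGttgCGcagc
Intergenic peak centre: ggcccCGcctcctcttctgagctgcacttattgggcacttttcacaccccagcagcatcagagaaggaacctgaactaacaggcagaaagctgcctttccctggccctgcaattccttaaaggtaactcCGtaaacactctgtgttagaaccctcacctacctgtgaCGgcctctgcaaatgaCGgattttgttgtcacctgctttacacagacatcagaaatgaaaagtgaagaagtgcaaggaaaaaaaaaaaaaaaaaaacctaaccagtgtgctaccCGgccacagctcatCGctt
The Fscb and Izumo3 windows held no CpG dinucleotide, and the Nt5c1b and Actg2 windows 1 each. The Dpep3 window differed from the other promoters shown, with 10 CpG dinucleotides, 58.4% G and C, and a match to AGGGGGC, letters found in the core of many CTCF sites. The intergenic window held 6 CpG dinucleotides in 300 bases.

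WT-only peaks had lower scores and were narrower than shared peaks. The score is the peak caller's measure of confidence, read as −10 times the log10 of its p-value, with no value under 50 in either list. The median score was 79.9 in WT-only peaks and 247 in shared WT peaks. The median width was 1287 bp in WT-only peaks against 2128 bp in shared ones. When the WT list was divided by score into 4 parts of like size, 65.4% of the peaks with the lowest scores were WT-only, then 49.3%, 22.1% and, among the highest scores, 2.16%. Still, 1531 WT-only peaks had a score in the upper 50% of the WT list. WT-only peaks covered 13.6 Mb of the 62.3 Mb covered by the WT list, and the CM list covered 61.6 Mb in all.

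Many WT-only peaks lay near a CM peak without touching it. The median gap to the nearest CM Pol2 peak was 6142.5 bp, with quartiles of 1767 and 24646 bp. The gap was under 100 bp for 191 peaks, under 1 kb for 1447 and under 10 kb for 5242 (59.9%), while 919 (10.5%) were at least 100 kb from any CM peak. Just inside the limit, peaks in Rfx2, Top1 and Cntnap2 with scores of 54.5, 51.1 and 66.7 abutted a CM peak with no base between. Just outside it, peaks in Rcor1, Mtmr12 and 4933411K20Rik with scores of 76.5, 73.7 and 108 shared 1 bp with a CM peak and were therefore counted as shared.

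WT-only peaks were found mainly inside genes rather than at promoters. Of the 8758 peaks, 5305 (60.6%, Wilson 95% interval 59.5 to 61.6) lay in a gene body, 2367 (27.0%, 26.1 to 28.0) were intergenic and 1086 (12.4%, 11.7 to 13.1) overlapped the 1 kb on either side of an annotated start. Of the shared peaks, 53.2% lay at a promoter, 30.7% in a gene body and 16.1% in intergenic sequence. The CM-only peaks were intermediate at promoters, with 26.8% there, 56.5% in gene bodies and 16.7% intergenic. Each Pol2 list stands for 2 ChIP replicates combined in a way that is not stated, so these intervals cover counting error only, and neighbouring peaks are not independent. On the autosomes 34.9% (34.3 to 35.5) of WT Pol2 peaks were WT-only, ranging from 30.2% on chromosome 4 to 41.8% on chromosome 3. On the X chromosome the share was lower, at 52 of 242 peaks (21.5%, 16.8 to 27.1), and 0 of the 4 peaks on the Y chromosome were WT-only, a number too small to read.

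H3K4me3 was listed at few WT-only peaks. A WT H3K4me3 peak overlapped 14.1% of them and 61.3% of shared peaks, a difference of −47.2 percentage points (Newcombe 95% interval −48.2 to −46.2). A CM H3K4me3 peak overlapped 10.0% of WT-only and 61.5% of shared peaks. Peaks listed only in CM were closer to WT-only peaks, with WT H3K4me3 at 16.5% of them (difference −2.42 points, −3.42 to −1.41) and CM H3K4me3 at 21.0%. In gene bodies 90.3% of WT-only and 93.7% of CM-only peaks had the mark in neither genotype. The difference was also present among promoter peaks alone, with WT H3K4me3 at 28.0% of the 1086 WT-only promoter peaks and 85.4% of the shared ones (difference −57.4 points, −60.1 to −54.6). Wider peaks and peaks of higher score have more room to overlap, and the part of the width and score differences given above in this result was not tested.

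Where a WT-only promoter peak did coincide with H3K4me3, the mark was mostly listed in both genotypes. Of the 1086 promoter peaks, 235 (21.6%) had H3K4me3 in WT and CM, 69 (6.35%) in WT only, 64 (5.89%) in CM only and 718 (66.1%) in neither. Intergenic WT-only peaks were divided otherwise, with 236 marked in both genotypes, 280 (11.8%) in WT only, 88 (3.72%) in CM only and 1763 in neither. In gene bodies 257 of 5305 peaks had H3K4me3 in WT only and 96 in CM only. H3K4me3 was mapped in 1 sample per genotype, so these counts have no replicate error.

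CTCF and BORIS peaks were rare at WT-only Pol2 peaks, although the genotypes compared differ in these proteins. A WT CTCF peak overlapped 264 WT-only peaks (3.01%) and 19.6% of shared peaks (difference −16.6 points, −17.3 to −15.9), and a BORIS peak overlapped 53 (0.605%) and 10.6% (difference −9.95 points, −10.5 to −9.46). At promoters WT CTCF was listed at 5.99% of WT-only and 30.8% of shared peaks, and BORIS at 1.38% and 18%. Neither protein was listed at 8483 WT-only peaks (96.9%), against 77.9% of shared peaks. Of the 264 WT-only peaks with WT CTCF, 121 (45.8%) had no CTCF peak in CM, and of the shared peaks with WT CTCF 64.4% had none. CTCF and BORIS were listed together at 42 WT-only peaks, 13 of them without CTCF in CM.

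**Figure D1:**
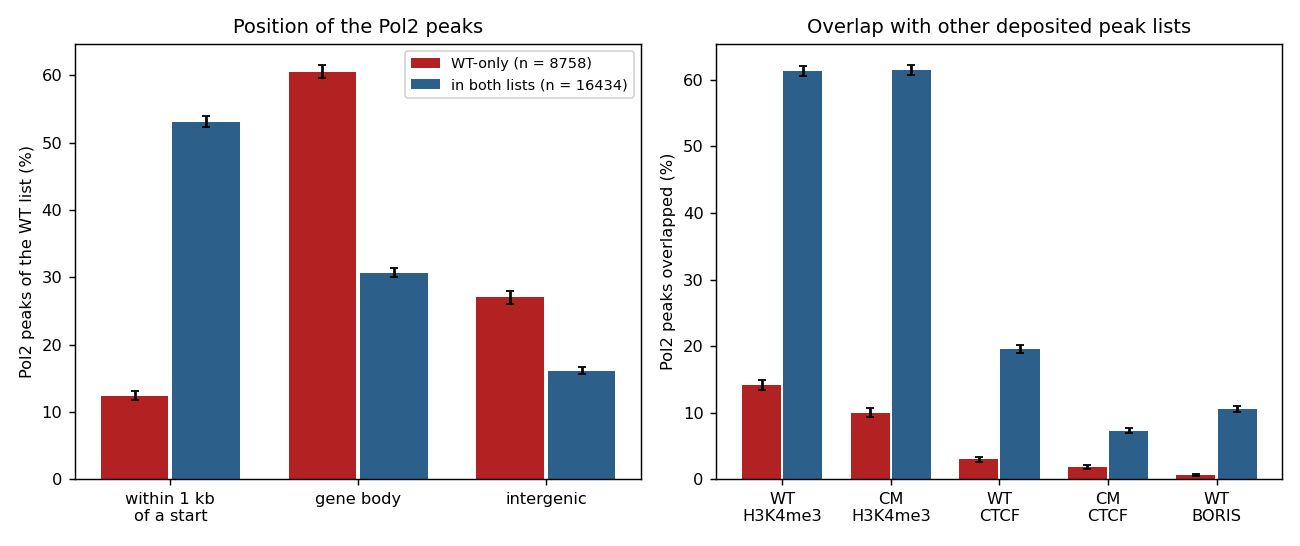
Share of Pol2 peaks of the WT list by position (left, percent of peaks) and by overlap with other deposited peak lists (right, percent of peaks), for WT-only peaks (red, n = 8758) and peaks shared with CM (blue, n = 16434). Error bars are Wilson 95% intervals. WT-only peaks lay in gene bodies in 60.6% of cases and overlapped each of the H3K4me3, CTCF and BORIS lists less often than shared peaks did.

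Most gene body WT-only peaks lay in genes whose promoter carried Pol2 in both genotypes. Of the 5305 gene body peaks, 4471 (84.3%) were in such a gene, against 81.6% of shared gene body peaks. Only 92 (1.73%) were in a gene whose own promoter was WT-only, and 695 (13.1%) were in a gene with no Pol2 peak at the promoter in either list. An annotated exon was touched by 36.3% of WT-only gene body peaks and 51.1% of shared ones, which were wider. The genes that held them were long, with a median length of 79.0 kb against 55.5 kb for shared gene body peaks.

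Within the gene, WT-only peaks were spread more evenly than shared peaks. On a scale from 0 at the start to 1 at the end of the gene, the median position was 0.54 for the 5007 WT-only peaks in a single gene and 0.61 for 4602 shared ones. The last 10% of the gene length held 14.0% of WT-only and 21.6% of shared peaks. Pol2 peaks that reached to within 1 kb of the annotated gene end made up 7.69% of WT-only and 16.9% of shared gene body peaks. The other 9 stretches of that length held between 6.43% and 11.3% of the WT-only peaks.

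**Figure D2:**
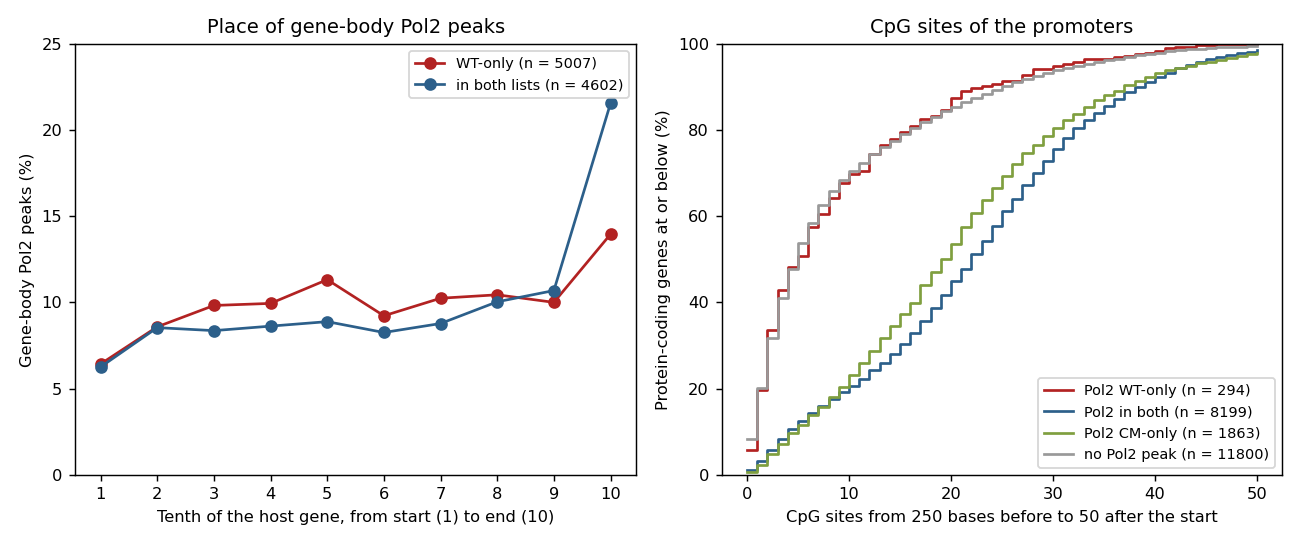
Left, share of gene body Pol2 peaks (percent) in each 10% of the length of the host gene from its start to its end, for WT-only (red) and shared (blue) peaks. Right, cumulative share of protein-coding genes (percent) by the number of CpG dinucleotides from 250 bases before to 50 after the start, for genes with Pol2 at the promoter in WT only, in both lists, in CM only or in neither. The last 10% held 21.6% of shared but 14.0% of WT-only peaks, and the WT-only promoters followed the curve of promoters with no Pol2 peak, not that of shared promoters. In genes with no Pol2 peak the start was chosen by another rule, given in the text.

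WT-only peaks accumulated in some long genes. At least 1 lay in 3347 genes, at least 3 in 686, at least 5 in 298 and at least 10 in 67. The genes with most were chosen after their values were seen. Tbc1d5, a regulator of membrane traffic, held 23 WT-only peaks beside 2 shared peaks over 446 kb, Cftr, the chloride channel mutated in cystic fibrosis, held 21 beside 3, and Psd3 held 21 beside 2. Zpbp, which encodes an acrosome protein, held 19, Nipbl, the cohesin loader, 17, and Boll and Sycp1, a germ cell RNA-binding protein and a protein of the synaptonemal complex, 15 each. All of these genes had Pol2 at the promoter in both lists. Cftr RNA in whole testis was at 80.8, 55.9 and 54.4 CPM (read counts scaled to library size) in WT and 56.1, 48.5 and 57.9 in CM, and Sycp1 RNA at 37.2, 49.9 and 33.2 and 28.0, 44.9 and 45.1 CPM. Neither gene passed the test described below (adjusted p = 0.444 and 0.921), and their groups overlapped.

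The 10 WT-only peaks with the highest scores included both promoters and gene bodies. Of the 10, 6 lay at a promoter, 3 in a gene body and 1 between genes. The values of 9 of them are given.

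The peaks with the highest scores of these 9 were at Cyp19a1 and 1700104A03Rik (chr9:54107330-54120341, score 2879), at an intergenic site (chr17:66558762-66580006, 2176) and at 2310046O06Rik, Gm17596 and Mpi (chr9:57384463-57397334, 1182). The Cyp19a1 and intergenic peaks were 491 and 455 bp from a CM peak, and that at 2310046O06Rik was 1905 bp away. They were followed by Gm1527 (1088), a gene body peak at 1700095A21Rik and Gm13247 (1075), Tex15 (1007), A330023F24Rik (949.6), Tceb2 (929.7) and Ppm1k (872). Cyp19a1, which encodes aromatase, the enzyme that makes oestrogens, had 6.48, 7.62 and 3.91 CPM in WT and 2.08, 3.54 and 3.62 in CM (log2 fold change −0.998 ± 0.37 (SE), adjusted p = 0.0745). Tex15, needed for meiotic recombination and germ cell silencing of transposons, had 117, 159 and 126 CPM in WT and 58.6, 94.0 and 84.2 in CM (log2 fold change −0.78 ± 0.26 (SE), adjusted p = 0.0565). In both genes all 3 CM libraries were below the WT libraries, and neither passed the test. Tex15 had another Pol2 peak at a start in both lists. At 2 of these loci the RNA was called higher in CM, A330023F24Rik with 4.50, 4.90 and 3.73 CPM in WT and 11.2, 7.07 and 10.3 in CM (log2 fold change 1.10 ± 0.29 (SE), adjusted p = 0.0287) and Ppm1k, a mitochondrial protein phosphatase, with 3.39, 2.78 and 2.31 and 9.80, 4.70 and 9.13 CPM (log2 fold change 1.45 ± 0.35 (SE), adjusted p = 0.0232). These 2 had a gene body WT-only peak and Pol2 at the promoter in CM only.

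A gene was given a WT-only Pol2 promoter when a WT-only peak overlapped the 1 kb on either side of one of its starts and no CM Pol2 peak did. This held for 519 annotated genes, against 9613 with Pol2 at the promoter in both lists, 2239 in CM only and 21503 in neither. The 519 comprised 294 protein-coding genes, 104 processed transcripts, 71 pseudogenes, 19 miRNA genes, 18 lincRNA genes and smaller classes, and 303 of them were in the RNA count table. The 1004 genes with any WT-only peak at a promoter include those with another Pol2 peak there in CM.

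WT-only promoters had the sequence composition of promoters without Pol2 rather than of promoters with Pol2 in both genotypes. From 250 bases before to 50 after the start, the 294 protein-coding WT-only promoters held a median of 5 CpG dinucleotides, against 22 in shared, 19 in CM-only and 5 in unoccupied protein-coding promoters. Of the WT-only ones, 50.7% (Wilson 95% interval 45.0 to 56.3) held 5 or fewer, compared with 12.4% of shared promoters. Their median content of G and C was 49.7% against 61.0%. In genes with a Pol2 peak at the promoter, the start nearest to the centre of such a peak was used. In unoccupied genes the most upstream start was used, and the part of this choice in the comparison was not tested. Single-exon genes made up 13.3% of the WT-only protein-coding genes (39 of 294), 4.27% of the shared ones and 12.5% of all.

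Letters of known promoter motifs were searched on both strands in the same 300-base windows. TATAAA, the TATA box, was found in 18.1% of the 519 WT-only promoters, 15.0% of all promoters, 6.76% of shared and 19.3% of unoccupied ones. Among protein-coding promoters it was found in 14.6% of WT-only and 13.1% of all. TGACGTCA, the palindromic cyclic AMP response element bound by CREM, was found in 6 WT-only promoters (1.16%), 1.67% of all and 3.68% of shared ones. GTTGCCA, part of the X-box bound by RFX proteins, was found in 7.71% of WT-only, 3.99% of all and 5.00% of shared promoters. AGGGGGC was found in 7.32% of WT-only, 9.34% of all and 13.7% of shared promoters. A match is a description of the letters and not a binding site.

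Total RNA counts per library were 10437683 at the lowest and 42055813 at the highest for whole testis. Round spermatid libraries held between 47740650 and 98545423 counts, and spermatocyte libraries between 53337530 and 88946702. Ctcf itself was at 45.1, 40.9 and 42.1 CPM in WT whole testis and 26.4, 26.8 and 24.3 in CM. Ctcfl was at 0.509 to 0.711 CPM in WT whole testis and 0.122 to 0.194 in CM. In the sorted cells the label CM did not go with less Ctcf RNA, with 48.0, 30.0 and 28.4 CPM in WT round spermatids against 171, 45.5 and 38.4 in those labelled CM, and 36 and 33.6 in WT spermatocytes against 89.3, 34.8 and 36.4. Ctcfl in round spermatids was at 2.80, 4.91 and 3.26 CPM in WT and 2.54, 1.73 and 1.07 in the libraries labelled CM, all below WT. Replicate 1 of the libraries labelled CM stood apart for Ctcf in both sorted cell types.

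In WT, the genes with a WT-only promoter were expressed in whole testis at a median of 6.29 CPM per kb of exon, with quartiles of 1.19 and 26.0, below the median of 10.0 for genes with Pol2 at the promoter in both lists. The 11211 genes with no Pol2 peak at the promoter had a median of 0.185 CPM per kb. In WT round spermatids and spermatocytes the WT-only genes had medians of 2.26 and 0.501 CPM per kb, compared with 6.57 and 7.63 for the shared genes. The WT-only median was thus higher in round spermatids than in spermatocytes and the shared median was not.

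Many genes with a WT-only promoter were round spermatid genes. Of 275 tested between WT round spermatids and WT spermatocytes, 149 (54.2%) were higher in round spermatids and 45 (16.4%) higher in spermatocytes (edgeR quasi-likelihood test, adjusted p under 0.05 and more than 2-fold), where 29.3% and 23.0% of all 16052 genes tested were. Their median log2 fold change was 1.56, against 0.02 over all genes and −0.23 for genes with Pol2 at the promoter in both lists. Genes with no Pol2 peak at the promoter also leaned to round spermatids. Of 5191 tested, 2027 (39.0%) were higher there and 841 (16.2%) higher in spermatocytes, with a median of 0.73. Cell type and sort cannot be told apart here.

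In CM whole testis, the share of genes with lower RNA was larger among genes with a WT-only Pol2 promoter than over all genes. Of the 274 tested, 65 (23.7%) were lower and 8 (2.92%) higher, where 5.9% and 15.3% of all 16378 genes tested were. The median log2 fold change was −0.65 over the 274 genes, 0.00 over all genes, −0.19 for genes with Pol2 at the promoter in both lists and 0.81 for genes with a CM-only promoter. In 139 of the 274 (50.7%) all 3 CM libraries were below all 3 WT libraries, against 22.3% of all genes, and in 21 (7.66%) all 3 were above, against 26.2%. The median difference of the 274 genes from the WT mean was −0.93, −0.40 and −0.56 (log2) in the 3 CM libraries and between −0.08 and 0.06 in the WT libraries. The 65 lower and 8 higher calls became 0 and 0 when CM replicate 3, WT replicate 2 or WT replicate 3 was left out, 27 and 4 without WT replicate 1 and 48 and 5 without CM replicate 1. Over all genes tested, the lower calls were then 2, 7 and 2 in place of 966 in the first 3 of these fits. The median log2 fold change of the WT-only genes stayed between −0.72 and −0.47 when any 1 library was left out. At an adjusted p under 0.001 no gene of the 274 was called. With the replicate number as a block, 88 were lower and 10 higher, and over all 16378 genes 1418 (8.66%) were lower and 3002 higher.

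Cell type marker RNA differed between the germ cell preparations of WT and CM. Fewer cells of a type cannot be told apart from less RNA per cell in these bulk samples. Of the marker lists used, 8 of 18 Sertoli, 10 of 13 Leydig and 14 of 16 macrophage markers were higher in CM whole testis and none of them lower. Of the peritubular and endothelial markers 3 of 13 were higher and 2 lower, and of the spermatogonial genes 6 of 21 were higher and none lower. The summed level of the Sertoli markers was 384 to 619 CPM in the WT libraries and 939 to 1809.9 in the CM libraries. That of the Leydig markers was 430.2 to 702 CPM in WT and 2081 to 4310.2 in CM. That of the macrophage markers was 536 to 736 CPM in WT and 667 to 1067 in CM, and these ranges overlapped. The peritubular and endothelial sum was lower in CM, at 391.8 to 393.3 CPM in WT and 132.8 to 157.5 in CM. Most of this sum in WT was the single gene Actg2, whose values are given below. The median log2 fold change of the 13 peritubular and endothelial markers was 0.38, so the sum does not stand for the list. The spermatogonial sum was 705 to 742 CPM in WT and 567 to 888 in CM, which also overlapped. No marker of these lists was at 0 counts in every library of either genotype. Lists of spermatid genes went the other way from the Sertoli, Leydig and macrophage markers. Lower were 4 of 12 chromatin packaging genes, 5 of 18 transcription regulators and 3 of 7 testis serine kinases. So were 4 of 29 acrosome genes and 17 of 42 flagellum genes, and none of these lists held a higher gene. The part of this shift in the lower RNA of the WT-only genes was not tested, but the values by stage are as follows. Of the WT-only genes that were higher in WT round spermatids, 53 of 143 (37.1%) were lower in CM whole testis and 0 higher, with a median log2 fold change of −0.96. Of round spermatid genes with Pol2 at the promoter in both lists, 372 of 1779 (20.9%) were lower and 117 higher, with a median of −0.66. Over all round spermatid genes 15.3% were lower, 12.9% were higher and the median was −0.45. Of the WT-only genes higher in WT spermatocytes, 2 of 44 were lower in CM and 4 higher. Of those called in neither direction, 10 of 78 were lower and 1 higher.

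**Figure D3:**
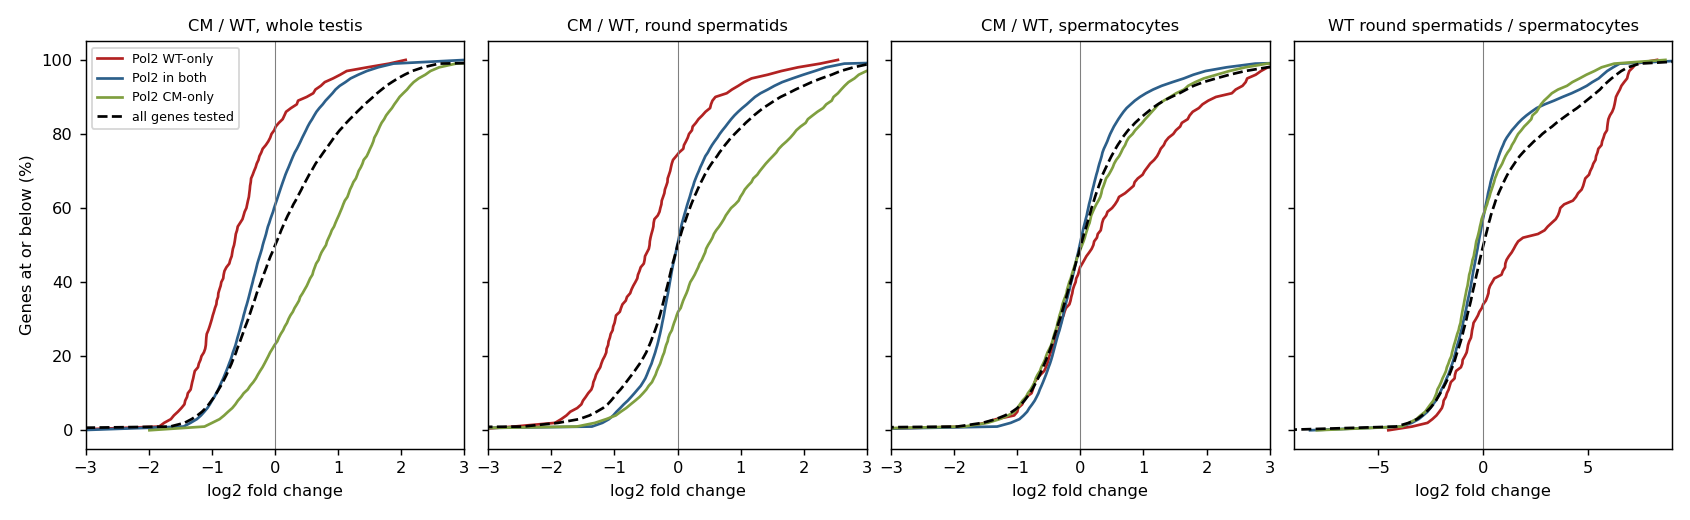
Cumulative share of genes (percent) by log2 fold change in 4 comparisons, for genes with Pol2 at the promoter in WT only (red), in both lists (blue) or in CM only (green), with all genes tested as the dashed line. In CM whole testis the WT-only curve lies left of the others (median −0.65), and between WT round spermatids and spermatocytes it lies to the right (median 1.56).

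Lower genes were found in each class of H3K4me3 at these promoters. Of the WT-only genes with promoter H3K4me3 in WT and CM, 34 of 163 (20.9%) were lower in CM whole testis, as were 8 of 32 with the mark in WT only, 5 of 26 with it in CM only and 18 of 53 (34.0%) with it in neither. The corresponding medians were −0.63, −0.68, −0.62 and −0.87, and the differences between these groups were not tested. Of the 66 genes with WT CTCF or BORIS at the promoter, 12 (18.2%) were lower and 3 higher, with a median of −0.43.

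Nt5c1b, which encodes a cytosolic nucleotidase of the testis, had 1740.3, 1424 and 1437 CPM in WT whole testis, 513, 699 and 514 in CM, 1315, 1055 and 1086 in BORIS KO and 1558, 1210.3 and 1075 in CTCF HET (CM against WT, log2 fold change −1.43 ± 0.25 (SE), adjusted p = 0.0156). Every CM library was below every library of the other 3 genotypes. Its promoter, with 1 CpG dinucleotide in the window shown, carried H3K4me3 in WT and none in CM. In round spermatids it was at 719, 702 and 655 CPM in WT and 420.2, 280.4 and 294 in CM, and in spermatocytes at only 10.3 and 9.61 and 14.3, 25.6 and 47.3.

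Dpep3, a membrane-bound dipeptidase of the testis, was the one of the 12 lower genes with the smallest adjusted p that had both a CTCF and a BORIS peak at its promoter, which also carried H3K4me3 in both genotypes and whose window held AGGGGGC. It was at 539, 409 and 379.7 CPM in WT whole testis and 178, 206 and 179 in CM (log2 fold change −1.25 ± 0.24 (SE), adjusted p = 0.016). In BORIS KO it was at 584, 352 and 332 and in CTCF HET at 383, 284 and 267 CPM. The BORIS KO libraries overlapped WT. In WT spermatocytes it was at 332 and 356 CPM, in BORIS KO spermatocytes at 501, 521 and 499, in CTCF HET at 157, 172 and 163 and in CM at 186, 183 and 177. Unlike Nt5c1b, it was already high in spermatocytes. Dpep3 (chr8:108497420-108503319) lies near the targeted Ctcf gene (chr8:108160468-108206822), and the part of the altered Ctcf locus in its RNA was not tested. The part of the CTCF and BORIS peaks was not tested either.

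Genes that encode receptors and cytoskeletal proteins were also among the lower genes. Actg2, the smooth muscle γ-actin, had 311, 317 and 338 CPM in WT and 42.7, 101 and 100.2 in CM whole testis (log2 fold change −1.998 ± 0.35 (SE), adjusted p = 0.0154), and BORIS KO was in between at 172, 152 and 180.4. It was on the list of peritubular and endothelial markers, of which 2 of 13 were lower and 3 higher in CM, with a median log2 fold change of 0.38. In sorted WT round spermatids Actg2 was at 36.6, 45.2 and 44.0 CPM and in WT spermatocytes at 0.916 and 1.03. In whole testis every CM library was below every WT library.

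Paqr5, a membrane progestin receptor, was at 151, 167 and 175 CPM in WT whole testis and 57.3, 69.3 and 72.2 in CM (log2 fold change −1.33 ± 0.22 (SE), adjusted p = 0.0154). The olfactory receptor gene Olfr701 was at 31.2, 23.7 and 19.7 and 7.43, 9.33 and 10.2 CPM (log2 fold change −1.49 ± 0.27 (SE), adjusted p = 0.0159). Spna1, an α-spectrin, was at 70.8, 52.9 and 45.9 and 19.3, 24.6 and 20.0 CPM (log2 fold change −1.42 ± 0.25 (SE), adjusted p = 0.0154). In these 3 genes the lowest WT library was above the highest CM library. Amn, whose protein takes part in vitamin B12 uptake, was lower from a small level, 6.45, 6.29 and 5.78 CPM in WT and 1.19, 2.50 and 1.42 in CM (log2 fold change −1.89 ± 0.36 (SE), adjusted p = 0.0161). The other named lower genes, 4931440L10Rik, Gm5114, 4921523A10Rik and 4930529F22Rik, had log2 fold changes between −1.41 and −1.20 and adjusted p between 0.0151 and 0.0165. In sorted WT round spermatids, sequenced as poly(A) RNA and not after rRNA depletion, Paqr5 was at 2.28, 2.24 and 1.97 CPM.

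**Figure D4:**
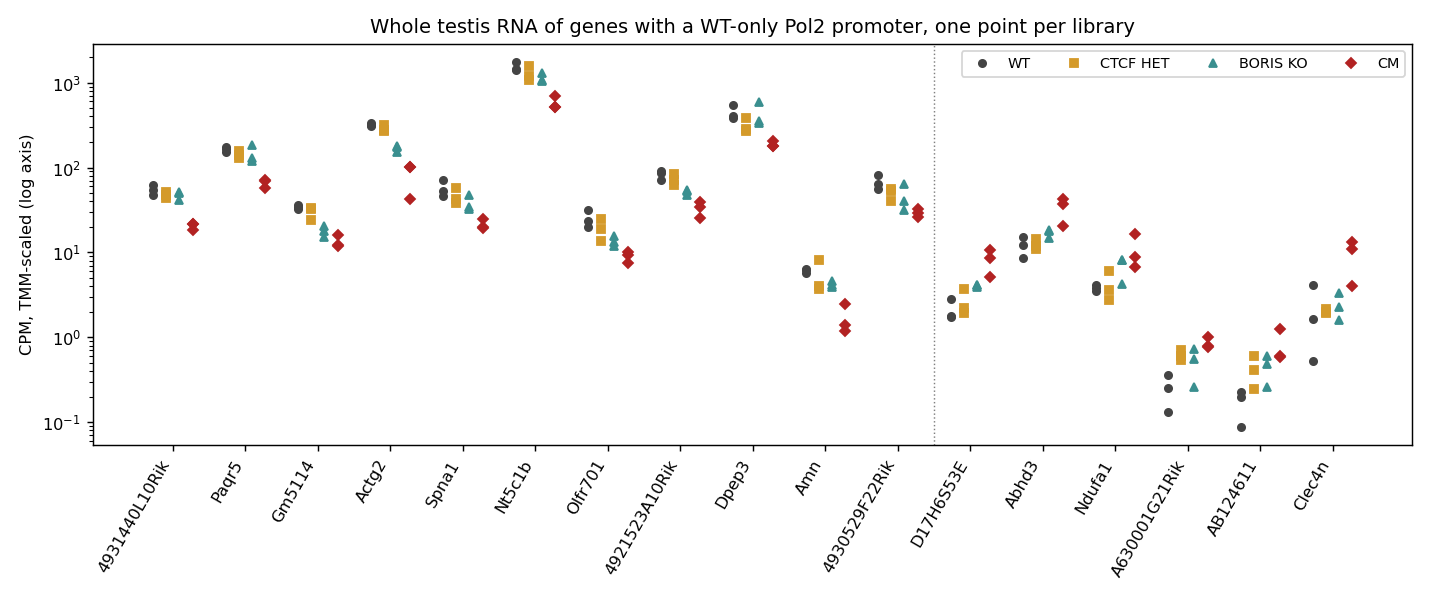
TMM-scaled CPM (log axis) of 11 lower and 6 higher named genes with a WT-only Pol2 promoter, 1 point per whole testis library in WT, CTCF HET, BORIS KO and CM, with the lower genes left of the dotted line. The CM libraries lie below all WT libraries in each of the 11 lower genes, with Nt5c1b at 513 to 699 CPM in CM and 1424 to 1740.3 in WT.

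Over the annotation, 519 of 33924 genes (1.53%) had a WT-only promoter and 3347 (9.87%) held at least 1 WT-only peak. In the gene lists a WT-only promoter was found at Izumo3 of the 29 acrosome and fusion genes in the annotation, at Fscb, Dnahc8 and Catsperb of 43 flagellum genes, at Actg2 of 13 peritubular and endothelial markers, and at none of the chromatin packaging, transcription regulator, testis serine kinase, meiotic, Piwi pathway, spermatogonial, Sertoli, Leydig or macrophage lists. Some lists of germ cell genes did hold WT-only peaks inside the genes, 46 in 17 of 43 flagellum genes and 52 in 10 of 29 acrosome genes. There were 50 in 10 of 35 meiotic genes, 41 in 12 of 22 Piwi pathway genes and 32 in 11 of 18 transcription regulators. Other germ cell lists held few or none, with 3 in 1 of 12 chromatin packaging genes. The spermatogonial and testis serine kinase lists, of 28 and 7 genes, held 0. The Sertoli, Leydig and macrophage lists, of 18, 13 and 16 genes, held none, too few genes to set against the 9.87% over the annotation.

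Fscb encodes a protein of the fibrous sheath of the sperm tail. It was at 1365, 943 and 921 CPM in WT whole testis, 296, 547 and 465 in CM, 717, 796 and 828 in BORIS KO and 919.8, 912 and 673 in CTCF HET (CM against WT, log2 fold change −1.31 ± 0.31 (SE), adjusted p = 0.0209). In WT round spermatids it was at 162, 211 and 207 CPM and in CM at 75.1, 65.5 and 69.7. The groups did not overlap in whole testis or in round spermatids. Izumo3, of the Izumo family of sperm proteins that act in fertilization, was at 109, 123 and 101 CPM in WT whole testis and 29.5, 76.5 and 65.2 in CM (log2 fold change −0.97 ± 0.35 (SE), adjusted p = 0.0676), Catsperb, a subunit of the sperm calcium channel, at 111, 108 and 92.2 and 48.4, 83.6 and 71.7 (log2 fold change −0.62 ± 0.26 (SE), adjusted p = 0.104), and Dnahc8, an axonemal dynein heavy chain, at 2844, 2421 and 2322 and 2222, 2219 and 1703 (log2 fold change −0.32 ± 0.25 (SE), adjusted p = 0.352). None of these 3 passed the test. Catsperb held 7 WT-only peaks, no shared WT peak and 1 CM peak inside the gene. Dnahc8 held 0 WT-only, 19 shared WT and 41 CM peaks inside the gene, and its WT-only promoter peak lay outside it.

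Other lower genes included Zmynd15, a repressor of haploid genes in spermatids, at 485, 406 and 386 CPM in WT and 166, 218 and 141 in CM (log2 fold change −1.29 ± 0.25 (SE), adjusted p = 0.0165). The Adam genes, which encode membrane metalloproteases and their inactive relatives on the sperm surface, were looked at after their values were seen. Of 32 Adam genes in the count table, 14 had Pol2 at the promoter in both lists, 2 in CM only, 12 in neither, and Adam4, Adam6a, Adam26a and Adam29 in WT only, and these 4 were all among the lower genes. Adam26a was at 57.1, 49.6 and 42.5 CPM in WT whole testis and 17.2, 28.7 and 24.9 in CM. Adam4 was at 104, 102 and 52.3 CPM in WT and 31.4, 37.5 and 30.7 in CM. These genes have close paralogs, as have Olfr701 and the ketone body enzyme genes Oxct2a and Oxct2b, also lower, and how reads shared by paralogs were counted is not stated.

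The 8 higher genes ran against the others. Abhd3 was at 15.4, 12.3 and 8.62 CPM in WT whole testis and 43.1, 20.4 and 37.7 in CM (log2 fold change 1.45 ± 0.34 (SE), adjusted p = 0.0206), and Ndufa1, a subunit of respiratory complex I, at 3.51, 3.78 and 4.09 and 8.88, 6.65 and 16.5 (log2 fold change 1.47 ± 0.37 (SE), adjusted p = 0.0246). D17H6S53E was at 2.83, 1.72 and 1.78 and 10.7, 5.18 and 8.50 CPM (log2 fold change 1.91 ± 0.37 (SE), adjusted p = 0.0165). A630001G21Rik, AB124611 and Clec4n, a C-type lectin receptor of macrophages, were at or below 4.16 CPM in every WT library. Clec4n, at 4.16, 1.66 and 0.533 CPM in WT and 13.5, 4.03 and 10.9 in CM (log2 fold change 2.07 ± 0.66 (SE), adjusted p = 0.0481), was at 0 to 0.0938 CPM in sorted round spermatids and at 0 in all WT and CM spermatocyte libraries. Its CM and WT libraries overlapped in whole testis. The remaining higher genes were Rwdd3 and Il11ra1, with adjusted p of 0.0495 and 0.0496. D17H6S53E, A630001G21Rik, AB124611 and Clec4n held 0 WT-only peaks inside the gene, so their WT-only peak lay within 1 kb of a start but outside it. AB124611 held 1 shared WT peak and 2 CM peaks inside the gene. Abhd3, Ndufa1, Rwdd3 and Il11ra1 held 1 WT-only peak each. Among the lower genes, Adam26a also held 0.

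In the single mutants no gene with a WT-only promoter was called. The CM, BORIS KO and CTCF HET comparisons share the 3 WT libraries, so their values are given side by side only. In BORIS KO whole testis 0 of 272 were lower and 0 higher (edgeR quasi-likelihood test, all genes 0.0489% and 0.00612%). The median log2 fold change was −0.22. An unadjusted p under 0.05 was found for 60 of the 272 genes and for 2717 of all 16344 genes tested. DESeq2 called 3 lower, and with the replicate number as a block, which paired the whole testis libraries, edgeR called 3 lower and 1 higher. Calls over all genes in these alternative fits are not given here. The median differences from the WT mean were −0.19, −0.22 and −0.23 in the 3 BORIS KO libraries. In CTCF HET 0 of 271 were lower and 0 higher (all genes 0.0% and 0.00621%), with none called by DESeq2 and a median of −0.09. Of the 271, 6 had an unadjusted p under 0.05, as did 424 of all 16097 genes tested.

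In CM round spermatids none of 271 genes was called lower or higher (edgeR, all genes 0.0% and 0.00654%), while DESeq2 called 47 lower and 5 higher. Of the 271, 82 had an unadjusted p under 0.05 (edgeR), as did 3136 of all 15298 genes tested. The median was −0.44, against 0.00 over all genes and −0.01 for genes with Pol2 at the promoter in both lists. By library it was −0.37, −0.90 and −0.54 in CM, and the library at −0.90 was also displaced over all genes, at −0.23. Without CM replicate 1, the library with the highest Ctcf, 29 were called lower. Calls over all genes under DESeq2 and without this library are not given here, so these counts cannot be set against a share.

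In CM spermatocytes 0 of 250 genes were lower and 2 were higher (all genes 0.0949% and 0.339%), with a median of 0.21. An unadjusted p under 0.05 was found for 83 of the 250 genes and for 4391 of all 14747 genes tested. The 2 were Kat2b, a histone acetyltransferase named after its values were seen, at 0.848 and 0.774 CPM in WT and 6.27, 5.46 and 10.8 in CM (log2 fold change 3.19 ± 0.38 (SE), adjusted p = 0.0392), and Ndufa1 at 4.62 and 4.19 and 15.3, 15.9 and 12.2 (log2 fold change 1.71 ± 0.22 (SE), adjusted p = 0.0426). DESeq2 called 5 lower and 37 higher. Calls over all genes in this and the following fits are not given here. Leaving out CM replicate 1 gave 14 lower and 46 higher, and leaving out CM replicate 2, CM replicate 3 or either WT library gave 0 higher. The by-library medians were −0.04, 0.14 and 0.29 in CM. The median over all 250 genes fell to 0.04 without CM replicate 3.

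Genes with several WT-only peaks inside them were also counted in CM whole testis. Of 652 tested genes with at least 3 such peaks, 78 (12%) were lower and 12 (1.84%) higher, with a median of −0.50. Of the 589 among them that had Pol2 at the promoter in both lists, 62 (10.5%) were lower, 6 were higher and the median was also −0.50. Of 6200 genes with Pol2 at the promoter in both lists and no WT-only peak, 353 (5.69%) were lower, 461 (7.44%) higher and the median was −0.11. In round spermatids the 654 such genes had a median of −0.12 and in spermatocytes 650 had a median of 0.13. The Ctcf gene itself held 2 WT-only peaks, the tyrosine kinase gene Fer 1 and Ctcfl 1, all 3 named in the study. Ctcf and Ctcfl are the genes altered in CM, and the part of the altered alleles in their WT-only peaks was not tested.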

How the data were processed

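The authors aligned 50-bp ChIP-seq reads to mm9 with Bowtie2 and called peaks with MACS and MACS2. The deposited Pol2 and H3K4me3 lists give a score for each peak, and the deposited CTCF and BORIS lists, divided with PeakSplitter, give a peak height (signal). How replicates were combined is not given in the sources used here. The deposited RNA tables hold raw counts per gene, from TopHat2 alignments for whole testis and STAR for sorted cells. The counting tool and strand setting are not given in the sources used here. Depth is given in the report.

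Peaks sharing at least 1 bp were called shared, and promoters reached 1 kb to either side of a start in GENCODE vM1 on NCBIM37, the assembly of mm9. Of 23284 gene symbols in the counts, 21872 matched it. Shares carry Wilson 95% intervals, which cover counting error only. Counts were tested with edgeR 4.0.16 (quasi-likelihood, filterByExpr, TMM, Benjamini-Hochberg) in R 4.3.3, fitted on the libraries of each comparison over all genes, and called at an adjusted p under 0.05 and more than 2-fold. The method was tested on simulated data. CPM are TMM-scaled, computed from the counts, and library differences used a pseudocount of 0.1 CPM. The labels separate whole testis libraries by preparation, and p-values measure the spread between these libraries. Same-numbered whole testis libraries deviated together (18 of 18 correlations above 0.1, 0.12 to 0.63), so those numbers were taken to pair the samples. In sorted cells they did not. Replicate 1 held the most counts in whole testis of each genotype, and the part of depth in this pairing was not tested. The main fits, which gave the SE and adjusted p of the named genes, did not use the pairing. Alternatives were DESeq2 1.42.0, other size factors, filters, thresholds and gene links, a replicate block and leaving out each library.

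Named genes were the 12 lower and 6 higher WT-only promoter genes with the smallest adjusted p in CM whole testis, genes at the 10 highest-scoring WT-only peaks, members of gene lists with a WT-only promoter, study genes with a WT-only peak, and the 3 peaks on either side of the overlap limit. Of the genes so named, 2 are not reported here. The regions and lists were chosen with earlier results of these data known. The CM libraries carry the label DKO in the deposited files.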

Additional observations from a re-analysis of the deposited data

Results flagged for a closer look

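For 13 named genes, every library labelled CM lay on one side of WT in 1 cell preparation and on the other side in another. The difference between preparations was not tested, and the CM against WT values in spermatocytes did not pass the adjusted threshold in any of the 13 (edgeR). Most of these genes had lower RNA in CM whole testis and a positive log2 fold change in spermatocytes, where their WT level was low. The paper estimates a lower purity for the sorted spermatocytes than for the sorted round spermatids. Whole testis RNA was sequenced after rRNA depletion and sorted cell RNA as poly(A) RNA. The part of purity and library type in these contrasts was not tested. In the sorted libraries labelled CM, Ctcf was not lower than in WT, while Ctcfl in round spermatids was below WT in all 3.

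Nt5c1b had log2 fold changes of −1.43 in whole testis, −1.02 in round spermatids and 1.53 in spermatocytes. Fscb had −1.31, −1.42 and 1.49 in the same order. Spna1 had −1.42, −1.48 and 2.02, and Olfr701 had −1.49, −1.05 and 1.04. In WT, each of them was far lower in spermatocytes than in round spermatids.

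Izumo3 had log2 fold changes of −0.97 in whole testis, −0.79 in round spermatids and 2.64 in spermatocytes. Of the genes without an established name, 4921523A10Rik had −1.34, −1.29 and 2.03, 4930529F22Rik had −1.20, −1.09 and 2.41, and 1700095A21Rik had −1.01, −0.88 and 1.41. In these the round spermatid and whole testis directions were the same and spermatocytes stood opposite.

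In 4 genes the contrast was between whole testis and spermatocytes alone. Gm5114 had a log2 fold change of −1.39 in whole testis and 2.82 in spermatocytes, Tex15 −0.78 and 2.50, and Cyp19a1 −1.0 and 0.85. AB124611 ran the other way, with 2.02 in whole testis and −1.66 in spermatocytes. At 2310046O06Rik round spermatids gave 2.31 and spermatocytes −0.77.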

How the results depend on the processing

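No result changed direction under the alternatives. With only the upper 50% of scores of each list, 3215 peaks were WT-only, 19.6% of them at promoters, and 21.1% overlapped WT H3K4me3, 8.55% CM H3K4me3, 2.49% WT CTCF and 1.49% CM CTCF. The promoter share was 7.24% when a peak had to cover the start and 17.4% within 2 kb. Requiring 50% of the shorter peak gave 12.2% for WT H3K4me3, 8.77% for CM H3K4me3 and 2.27% for WT CTCF, and allowing 1 kb gave 18.7%, 13.8% and 5.32%, with 3.55% for CM CTCF and 1.22% for BORIS.

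In CM whole testis the WT-only promoter genes gave 0 lower and 0 higher at an adjusted p under 0.001, 114 and 16 with any WT-only peak at the promoter, 5 higher with RLE size factors and 4 higher when the peak covered the start. Leaving out 1 library gave 0 to 67 lower and 0 to 11 higher. DESeq2 called 3 lower in BORIS KO, 47 lower and 5 higher in round spermatids, and 5 lower and 37 higher in spermatocytes. For these comparisons, calls over all genes in the alternative fits are not given here. With the replicate block, which pairs the whole testis libraries, CM gave 88 lower and 10 higher, of which 63 and 8 were called without it, BORIS KO 3 lower and 1 higher, and CTCF HET 0 and 0. The sorted libraries share only a number, and the block there gave 4 higher in spermatocytes with a median of 0.0166, and none in round spermatids. Leaving out 1 library gave 0 to 29 lower in round spermatids, and 0 to 14 lower, 0 to 46 higher and a median of 0.0381 to 0.255 in spermatocytes. Where 1 WT spermatocyte library remained, it was assumed to vary like the others. Spermatocytes gave 0 higher at an adjusted p under 0.001.

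The gene link by 3 or more WT-only peaks anywhere in the gene, chosen after seeing the data, gave a median of −0.12 in round spermatids, 1 higher in spermatocytes, and 124 lower with a median of 0.19 between round spermatids and spermatocytes. Any WT-only peak at the promoter gave −0.20 in round spermatids and, between the cell types, 134 lower, 268 higher and a median of 0.32. That median was 1.86 when the peak covered the start and 1.43 with no filter, and 29 were lower at an adjusted p under 0.001. Among the 18 called named genes, all lost the call without CM replicate 3, WT replicate 2 or WT replicate 3. The causes were not tested. The remaining 204 values moved little. Peak lists without replicates and scores near the minimum limit what a WT-only peak can show.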
